A study of Rattus norvegicus with 16 samples.

Results

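Livers of adult male rats from mixture-exposed, fostered litters (MM) were compared with livers from control, fostered litters (CC). The 8 arrays titled as cross-fostered M (4 arrays) or cross-fostered control (4 arrays) were taken, out of 16 arrays in the series. Both groups were male Sprague-Dawley rats aged 78 to 86 days whose litters had been moved to another dam of the same treatment. CC dams received corn oil. MM dams received 1.0 mg/kg/day of a contaminant mixture that joined methylmercury to polychlorinated biphenyls and organochlorine pesticides, from the start of gestation to postnatal day 20. Each group held 8 pups, and the RNA of 2 rats was pooled for each array, so an array stands for a pool. The labels do not say which pups were siblings, and p-values measure the spread between pools. On every array liver cRNA carried Cy5 (the liver channel) and a universal reference RNA from 14 rat cell lines carried Cy3 (the reference channel), with no dye swap. All CC arrays lay on slide 1 and all MM arrays on slide 2, and these slides were scanned separately, so exposure and slide cannot be told apart.

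These contaminants are persistent, pass to offspring through placenta and milk, and are handled by the liver. Planar chlorinated compounds activate the aryl hydrocarbon receptor (AhR), and many other organochlorines activate the nuclear receptors CAR and PXR, which drive cytochrome P450 and conjugating enzyme genes. Methylmercury binds thiols and selenols, and is known for its effects on glutathione, on the NRF2 response and on selenoproteins. Dosing had ended before adulthood, so the comparison asks what remained in adult liver after exposure in the womb and through milk, in animals that shared the experience of fostering. The same universal reference RNA was named for every array. Whether its lot and labelling batch were the same on both slides was not tested. A difference between MM and CC in the reference channel is therefore read as a difference between hybridisations. It enters the log ratio (liver over reference) with its sign turned. Liver and reference RNA were hybridised together on each spot, and whether liver signal enters the reference channel was not tested.

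The share of probes well above background in the liver channel was 37.2% to 40.1% on CC arrays and 35.0% to 40.9% on MM arrays. The reference channel differed between the slides before normalization. Its local background was 23 to 24 units on CC arrays and 19 to 20 on MM arrays, and its median variation among replicate spots was 5.45% to 7.72% against 9.42% to 12.5%. Neither pair of ranges overlapped (exact permutation test, two-sided, p = 0.0286 for each, the smallest p that 4 against 4 can give; 0.114 after Benjamini-Hochberg adjustment over 8 measures). In the liver channel, replicate spots varied by 9.99% to 22.4% on CC arrays and 18.3% to 40.0% on MM arrays, with overlapping ranges. MM replicate 3, in the first column of its slide, had both the highest spot variation and the lowest share of probes above background.

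Far fewer features differed between MM and CC in the liver signal itself than in the log ratio. In the log ratio 420 of 11091 tested features were called (3.79%), 156 higher (1.41%) and 264 lower in MM (2.38%), by limma with Benjamini-Hochberg adjusted p under 0.05. Of these, 102 changed by at least 1.5-fold. In the liver channel alone 36 features were called (0.325%), 21 higher (0.189%) and 15 lower (0.135%). In the reference channel 5275 were called (47.6%), 2492 higher (22.5%) and 2783 lower (25.1%), although the same reference RNA was named for all arrays. The median difference over all features was -0.02 in the log ratio and -0.00 in each channel. Directions over all calls depended on scaling. With median centring in place of loess, 181 features were higher and 118 lower in the log ratio. With median scaling in place of quantile, the liver channel gave 0 higher and 2 lower, and the reference channel 1348 higher and 5778 lower, with the median of all features at -0.11 in the reference channel. Channels taken from loess and Aquantile normalized arrays gave 36 higher and 16 lower in the liver channel, and 2791 higher and 2399 lower in the reference channel.

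The 420 log ratio calls were set against each channel. The reference channel was called for 367 of them (87.4%), where 47.6% of all features were called, and moved opposite to the log ratio for 367. The liver channel moved in the direction of the log ratio for 314, at an unadjusted p under 0.05 for 130, and was called for 20. The liver difference was the larger of the channel differences for 121 (28.8%). With the 8 arrays alone and slide row in the fit, 166 features were called in the log ratio and 0 in the liver channel. The smallest adjusted p in the liver channel was then 0.154 by limma. With the replicate number as a block on the same 8 arrays, 135 features were called in the log ratio, 20 higher and 115 lower, of which 121 were among the 420. No feature was called in the liver channel by limma under that block, with 1160 at an unadjusted p under 0.05, while 5029 were called in the reference channel. Of the genes named by the rules used here, 65 were called in the log ratio, and 19 kept that call under the block, among them Dot1l, Pfn1, Ednra, Vom2r35, Agxt2, Pex5, Mk1, Glrx5, Marf1, Slbp, Calr, Acin1, Reep3, H1f4, Or5h25d, Apoc2, Hsp90ab1 and Hadha. The others had a limma adjusted p of 0.053 to 0.166 under the block, and the 14 named liver-channel calls 0.208 to 0.311. The log ratio count of 420 fell to 220 without CC replicate 1, to 217 without CC replicate 3 and to 225 without MM replicate 2.

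**Figure D1:**
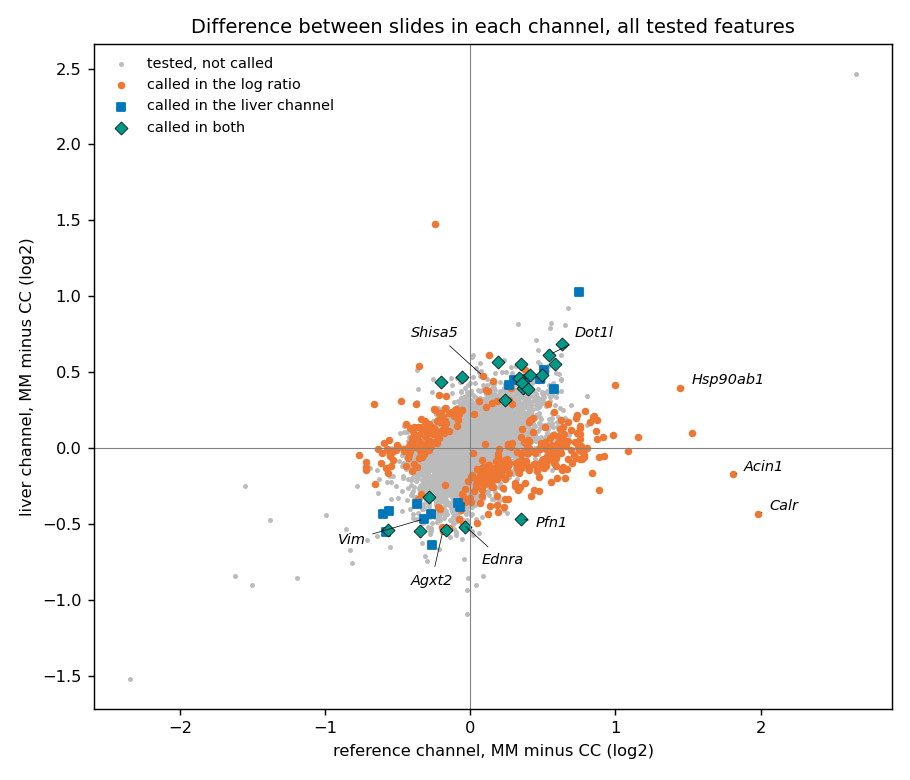
Difference between MM and CC (log2) in the reference channel (x axis) and the liver channel (y axis) for the 11091 tested features, coloured by call (limma, adjusted p under 0.05). Log ratio calls spread mainly along the reference axis, with Calr at 1.98 in the reference channel, whereas 33 of the 36 liver-channel calls lie where both channels moved the same way.

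Among the log ratio calls, 170 had a symbol and no overlap between the 4 MM and 4 CC log ratios; over all features 6.61% had no overlap in the log ratio, 42.9% in the reference channel and 4.24% in the liver channel. For 45 of the 170 the liver difference was larger in size than the reference difference (liver side, 19 higher and 26 lower in MM). For 125 the reference difference was the larger (reference side, 47 higher and 78 lower). Where both channels moved the same way, the side tells only which moved more. Dot1l (liver 0.61, reference 0.55) fell on the liver side and Or5h25d (0.55 and 0.59) on the reference side. For Or5h25d, liver minus reference was -0.03 while the log ratio rose by 0.54, and that rise reversed with median centring. The 8 largest changes in each direction on the liver side, and the 4 largest in each direction on the reference side, are described. All values of single genes are on the log2 scale, where 1 unit is a doubling.

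Among the 8 largest rises in MM on the liver side were those of Dot1l, Mtnr1a, Shisa5, Grina, Relt, Ppp1cb and Gpat4, higher by 0.40 to 0.48 in the log ratio. Ppp1cb encodes a catalytic subunit of protein phosphatase 1. Its log ratios were -0.24, -0.00, 0.08 and 0.19 on CC replicates 1 to 4, and 0.31, 0.23, 0.47 and 0.65 on MM replicates 1 to 4. All MM log ratios lay above all CC log ratios, while liver values of 8.32, 8.61, 8.74 and 8.85 in CC and 8.76, 8.67, 9.0 and 9.14 in MM overlapped. The log ratio difference was 0.41 (SE 0.07; limma, adjusted p = 0.0053), with 0.26 in liver (adjusted p = 0.140) and -0.18 in the reference (adjusted p = 0.0012). A dimmer Ppp1cb probe read -0.18 in the log ratio.

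Shisa5, which encodes a membrane protein that takes part in programmed cell death, had most of its difference in liver. Its liver values were 6.91, 6.95, 6.66 and 6.70 in CC and 7.30, 7.12, 7.56 and 7.11 in MM, and the groups did not overlap. The reference difference was 0.09 (limma, adjusted p = 0.192), the liver difference 0.47 (SE 0.10; adjusted p = 0.068) and the log ratio difference 0.43 (SE 0.11; adjusted p = 0.034). A second Shisa5 probe read -0.03 in liver and -0.28 in the reference. The call was lost without any 1 of CC replicates 1, 3 and 4 or MM replicates 1, 2 and 3 (0.36 to 0.51 over the 8 arrays left out in turn, adjusted p up to 0.107).

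Grina (a membrane protein of the Bax inhibitor family), Relt (a receptor of the tumour necrosis factor receptor family) and Gpat4 (an acyltransferase of triglyceride and phospholipid synthesis) were higher by 0.42, 0.42 and 0.40 in the log ratio. Their liver differences were 0.23, 0.18 and 0.23 and none was called. Reference differences of -0.22, -0.17 and -0.20 were of similar size. The Gpat4 call (limma, adjusted p = 0.046) was lost without any array other than MM replicate 3, over a range of 0.35 to 0.45. Relt was well above background in liver on 2 CC and 3 MM arrays.

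Dot1l, a histone methyltransferase, and Mtnr1a, a melatonin receptor, rose in both channels. Dot1l liver values were 6.52, 6.41, 6.41 and 6.38 in CC and 7.12, 6.86, 7.12 and 7.09 in MM, a difference of 0.61 (SE 0.09; limma, adjusted p = 0.010). Its reference values rose by a like amount, from 6.79 to 6.95 in CC to 7.31 to 7.51 in MM, a difference of 0.55. Its log ratio differed by 0.48 (adjusted p = 0.0072) although the liver difference exceeded the reference difference by only 0.07. Separately normalized channels need not subtract to the loess log ratio: of the 420 calls, 54 differed by over 0.2 from the liver minus reference difference, and 36 of those were not well above background in liver on all 8 arrays. A second Dot1l probe, above background on none of the 8 arrays, read -0.02 in liver and 0.03 in the log ratio. Mtnr1a was well above background in liver on 1 CC and 4 MM arrays, with differences of 0.43 in liver, 0.36 in the reference and 0.48 in the log ratio. It passed the filter only through the mixture-exposed groups, fostered or not.

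**Figure D2:**
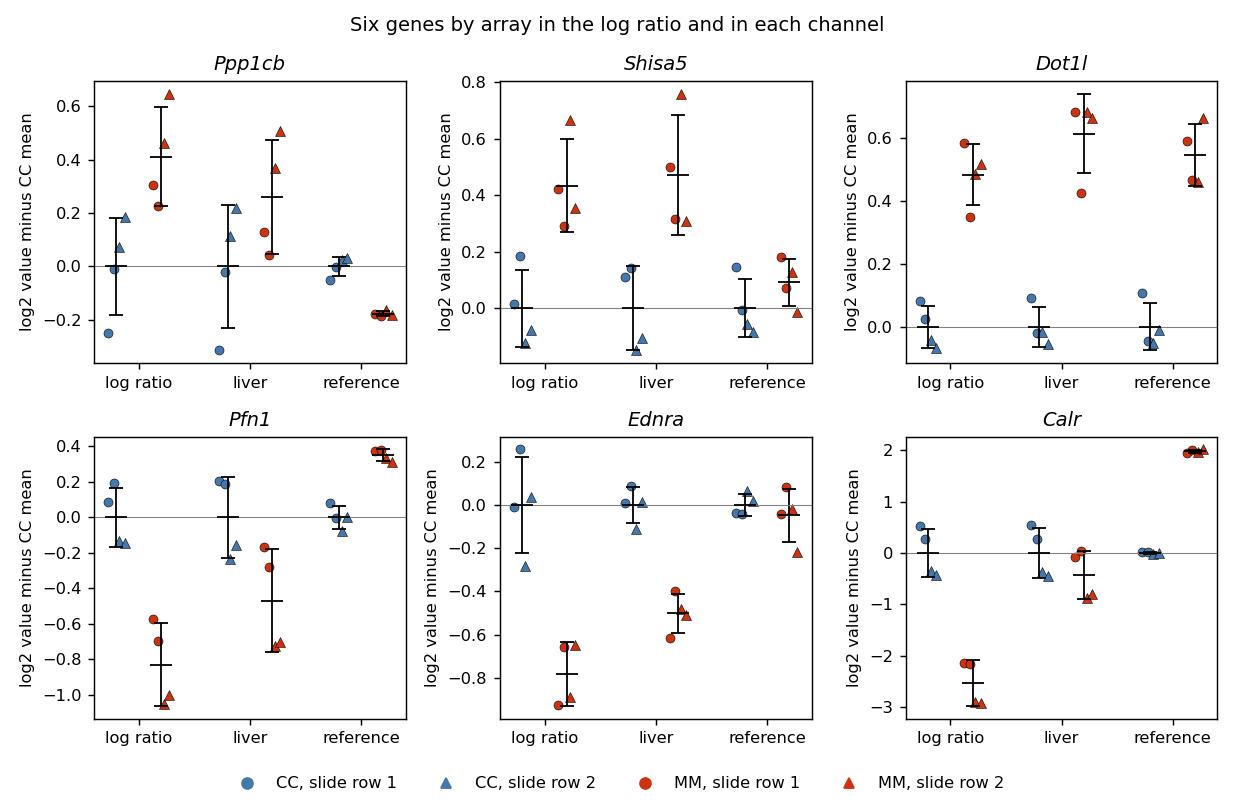
Log2 values of Ppp1cb, Shisa5, Dot1l, Pfn1, Ednra and Calr on each CC and MM array, as the difference from the CC mean, for the log ratio, the liver channel and the reference channel. Points are arrays (circles slide row 1, triangles slide row 2), and bars give the group mean and SD (n = 4). Pfn1 and Ednra fell in the liver channel by 0.47 and 0.50, while the Calr log ratio difference of -2.53 lies mainly in the reference channel.

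The 8 largest falls on the liver side were those of Sbk1, Pfn1, Ednra, Vom2r35, Agxt2, Pex5, Mk1 and Glrx5, at -0.86 to -0.62 in the log ratio. Pfn1 encodes profilin, which binds actin monomers. The Pfn1 log ratios were -0.25, -0.14, -0.47 and -0.48 in CC and -0.91, -1.03, -1.39 and -1.33 in MM, with no overlap. The difference was -0.83 (SE 0.08; 1.78-fold; limma, adjusted p = 3.85e-05) and kept its call without each array in turn. Liver values were 10.32, 10.30, 9.88 and 9.96 in CC and 9.95, 9.83, 9.39 and 9.41 in MM. The groups overlapped there, and row 1 read higher than row 2 in both. Within each slide row both MM arrays lay below both CC arrays (-0.42 in row 1, -0.52 in row 2). Pfn1 was the only named gene called in the liver channel (-0.47, SE 0.08, adjusted p = 0.022) and called in the opposite direction in the reference channel (0.35, adjusted p = 1.46e-07). Its liver call was lost without any array other than MM replicate 2 (-0.51 to -0.45, adjusted p up to 0.091).

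Ednra encodes the type A endothelin receptor, which mediates contraction of vascular smooth muscle and hepatic stellate cells. Liver values were 7.09, 7.17, 6.97 and 7.09 in CC and 6.46, 6.68, 6.60 and 6.57 in MM. Every MM value lay below every CC value, and the reference values, 6.95 to 7.06 in CC and 6.78 to 7.08 in MM, overlapped. The log ratio difference was -0.78 (SE 0.12; 1.72-fold; limma, adjusted p = 0.0026), the liver difference -0.50 (SE 0.10; adjusted p = 0.052) and the reference difference -0.05 (adjusted p = 0.722). The log ratio call held without each array in turn (-0.87 to -0.69, adjusted p up to 0.011). Ednra was well above background in liver on 4 CC arrays, on 2 MM arrays and on all arrays of both unfostered groups, so that its MM level rests partly on signal near background. A second probe, above background on none of the 8, read -0.15 in the log ratio.

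Agxt2 encodes a mitochondrial aminotransferase. Its liver values were 10.08, 10.20, 9.85 and 10.34 in CC and 9.58, 9.49, 9.57 and 9.65 in MM, with no overlap and a difference of -0.54 (SE 0.15; limma, adjusted p = 0.152). The reference fell as well, by 0.19 (adjusted p = 0.018), and the log ratio difference was -0.64 (SE 0.16; adjusted p = 0.040), a call lost without CC replicates 1, 2 or 4 or MM replicates 1, 2 or 3 (-0.73 to -0.54, adjusted p up to 0.113). Glrx5, a mitochondrial glutaredoxin of iron-sulfur cluster assembly, read 11.13, 11.13, 10.86 and 11.04 in CC livers and 10.69, 10.67, 10.42 and 10.69 in MM livers. These did not overlap, and Glrx5 differed by -0.62 in the log ratio (SE 0.11; adjusted p = 0.0050), by -0.42 in liver (adjusted p = 0.135) and by 0.19 in the reference.

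Pex5, the import receptor for peroxisomal matrix proteins, was lower by 0.63 in the log ratio (SE 0.12; limma, adjusted p = 0.0081) and by 0.34 in liver, where the groups overlapped; a second probe, above background on 1 of 8 arrays, read 0.11. Mk1 differed by -0.63 (SE 0.10; adjusted p = 0.0030), with liver values of 7.50 to 7.72 in CC and 7.17 to 7.25 in MM that did not overlap. Sbk1, a serine/threonine kinase, had the largest difference on this side, -0.86 (SE 0.20; adjusted p = 0.029). Its values differed between slide rows, with -1.20 in row 1 and -0.53 in row 2, and a second probe, above background on all 8 arrays, read -0.10. The vomeronasal receptor gene Vom2r35 differed by -0.68 (SE 0.18; adjusted p = 0.048) and was above background in liver on 4 CC and 2 MM arrays. Leaving out 1 array lost the Sbk1 call except for CC replicate 4 and MM replicate 3 (-0.97 to -0.74), and the Vom2r35 call except for MM replicate 4 (-0.81 to -0.52).

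The largest log ratio changes of all named genes lay on the reference side. Calr encodes calreticulin, a calcium-binding chaperone of the endoplasmic reticulum. Its log ratios were 2.80, 2.56, 1.93 and 1.85 in CC and 0.15, 0.13, -0.62 and -0.64 in MM, a difference of -2.53 (SE 0.13; 5.79-fold; limma, adjusted p = 3.90e-08). The reference RNA itself read 11.07 to 11.11 on CC arrays and 13.04 to 13.11 on MM arrays, a difference of 1.98. Liver values of 12.67, 12.39, 11.76 and 11.68 in CC and 12.04, 12.15, 11.25 and 11.32 in MM overlapped, with a difference of -0.43 (SE 0.14; adjusted p = 0.194). Acin1, an RNA-binding protein of apoptotic chromatin condensation, differed by -2.05 in the log ratio, 1.81 in the reference and -0.17 in liver. Reep3, a shaper of the endoplasmic reticulum, and H1f4, a linker histone, fell by 1.22 and 1.17 in the log ratio, against reference rises of 0.88 and 1.16 and liver differences of -0.27 and 0.07. A second Reep3 probe read -0.13 in the log ratio.

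In the other direction, Marf1 (a regulator of RNA stability in oocytes), Slbp (the binding protein of histone mRNA stem-loops), Tmem268 (a transmembrane protein) and Map3k1 (a kinase upstream of JNK signalling) were higher by 0.96, 0.79, 0.56 and 0.55 in the log ratio. Their reference values fell by 0.66, 0.47, 0.58 and 0.44 on the MM slide. Their liver differences were 0.29, 0.31, -0.01 and 0.15, and none was called. A dimmer Tmem268 probe, above background on none of the 8 arrays, read -0.19 in the log ratio. The Tmem268 call (limma, adjusted p = 0.036) was lost without CC replicates 1, 2 or 3 or MM replicates 1, 2 or 3 (0.47 to 0.65), and the Map3k1 call (adjusted p = 0.020) without CC replicate 1 (0.44) or MM replicate 1 (0.63).

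The 36 liver-channel calls were examined without regard to the log ratio. For 31 of them the reference channel was called in the same direction, and 33 had the same sign in both channels. Over all features 64.4% had the same sign in both channels, and among features with an unadjusted liver p under 0.05 the share was 83.8%. Of the 36, 20 were also called in the log ratio, 14 had a symbol and 19 were well above background in liver on all 8 arrays.

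The named genes lower in the liver channel were Vim, Incenp, Trpv2, Aldoa, Pkm and Pfn1. Vim, which encodes the mesenchymal intermediate filament vimentin, read 8.0, 8.21, 7.93 and 7.91 in CC and 7.55, 7.64, 7.55 and 7.44 in MM livers. The groups did not overlap, and the difference was -0.47 (SE 0.07; limma, adjusted p = 0.011), but the reference fell by 0.32 and the log ratio differed by -0.09 (adjusted p = 0.680). Liver and reference fell together also for Incenp, a subunit of the chromosomal passenger complex (liver -0.37, reference -0.37, log ratio 0.02), and for the glycolytic enzyme genes Aldoa (liver -0.41, reference -0.56, log ratio 0.20) and Pkm (liver -0.56, reference -0.58, log ratio 0.11). Trpv2, a cation channel, read 8.22, 8.21, 7.91 and 7.92 in CC and 7.87, 7.78, 7.61 and 7.42 in MM livers, with no overlap. It differed by -0.39 (SE 0.06; adjusted p = 0.020) while its reference difference was -0.07 (adjusted p = 0.066) and its log ratio difference -0.29 (adjusted p = 0.069).

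Among named genes higher in the liver channel, Mrps33, of the mitochondrial ribosome, and Txnl1, a thioredoxin-like protein of the cytosol, were bright on every array. They differed by 0.45 and 0.41 in liver (limma, adjusted p = 0.039 and 0.047), by 0.30 and 0.27 in the reference and by 0.08 and 0.09 in the log ratio, which was not called. Abhd15, an abhydrolase of lipid metabolism, and the olfactory receptor genes Or5h25d and Or5p50 differed by 0.32, 0.55 and 0.40 in liver and by 0.24, 0.59 and 0.36 in the reference. These 3 were dim, above background on 1, 2 and 1 of the 4 CC arrays. Prima1, which anchors acetylcholinesterase to membranes, exceeded background on 0 CC arrays and 3 MM arrays. Its liver difference was 0.48 in the quantile fit (limma, adjusted p = 0.028) and 0.75 after loess and Aquantile normalization. Both sizes rest on CC signal near background. Liver carried the same dye in both groups, and whether a dye effect differed between the slides was not tested. The Prima1 reference signal rose by 0.49, and liver minus reference was -0.01. Prima1, Abhd15, Or5h25d and Or5p50 passed the filter only through the mixture-exposed groups, fostered or not. With median centring the Or5h25d and Prima1 log ratios reversed, to -0.090 and -0.046, and a second Prima1 probe, above background on none of the 8 arrays, read -0.20. The liver-channel count was small after leaving out most single arrays, at 12, 13, 6 and 7 without CC replicates 1, 2, 3 and 4, and at 2, 13 and 21 without MM replicates 1, 3 and 4. Dot1l, Vim and Or5h25d lost their liver call only without MM replicate 1 (limma, adjusted p = 0.053). Incenp lost it without CC replicates 1, 2 or 3 or MM replicate 1, Aldoa without CC replicates 2, 3 or 4 or MM replicates 1 or 3, and Pkm without CC replicates 1, 2 or 3 or MM replicates 1 or 4. Trpv2 lost it without any CC array or MM replicates 1 or 4, and Prima1 without CC replicates 2, 3 or 4 or MM replicates 1, 3 or 4. Mtnr1a kept it only without MM replicate 2, and Abhd15, Or5p50, Mrps33 and Txnl1 lost it without any 1 of the 8 arrays.

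A class set after its values were seen held log ratio calls with the liver channel at an unadjusted p under 0.05 in the same direction and no call in the reference. It had 37 features, 23 with a symbol. Ednra, Sbk1 and Shisa5 were in it. So were Agtr1a, the angiotensin II type 1 receptor of hepatocytes, at -0.54 in the log ratio and -0.27 in liver, and Crispld2, a secreted glycoprotein, at -0.44 and -0.36. Slc10a3, a solute carrier, was at -0.47 and -0.36. Flad1, the FAD synthase, was at 0.34 and 0.44. The Slc10a3 call held without each array in turn, that of Agtr1a only without MM replicates 1 or 4, that of Crispld2 only without CC replicate 1 and that of Flad1 only without MM replicate 1.

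Gene lists of 29 pathways and 9 cell types were then read in each measure. Of 749 members tested, 24 were called in the log ratio (3.20%, against 3.79% of all features), 298 in the reference channel (39.8%, against 47.6%) and 0 in the liver channel by limma, where 1359 of all features had an unadjusted p under 0.05. In the liver channel 0.325% of all features were called, so 0 calls in a single list lies near that share.

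Target genes of the receptors that sense such chemicals had 0 calls in the log ratio and the liver channel. For lists of this size that is near the shares over all features (3.79% and 0.325%). Of 25 CAR and PXR targets tested, 0 were called in the log ratio or liver channel, and the median liver difference was 0.03 (13 above 0 and 12 below), against -0.00 over all features. The liver medians were -0.23 in row 1 and 0.13 in row 2. In the log ratio their median was -0.21, against -0.02 over all features, with 3 above 0 and 22 below. Cyp3a23-3a1, a main steroid- and drug-oxidising cytochrome of rat liver, came nearest. Its log ratios were 7.15, 7.34, 7.22 and 7.81 in CC and 7.01, 6.41, 6.56 and 6.97 in MM, with no overlap and a difference of -0.65 (SE 0.17; limma, adjusted p = 0.051). Its liver difference was -0.38 (SE 0.16; adjusted p = 0.353), with overlapping groups. Cyp2b2, the phenobarbital-inducible cytochrome, read 7.78, 8.42, 8.57 and 8.04 in CC livers and 7.90, 7.68, 8.40 and 8.69 in MM livers, and these overlapped (-0.04, SE 0.28). Cyp2c7, a retinoic acid hydroxylase, had the lowest liver p of the list, at -0.63 (SE 0.24; limma, adjusted p = 0.290), with -0.23 in row 1 and -1.03 in row 2.

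Of 10 AhR battery genes tested, 0 were called in the log ratio or liver channel. Cyp1a2, the AhR target expressed constitutively in liver, differed by 0.26 in the liver channel (SE 0.28), with -0.27 in row 1 and 0.79 in row 2. Cyp1a1, the most inducible target, was not well above background on any of the 8 arrays and was not tested. Nqo1, an oxidoreductase shared by AhR and NRF2, differed by -0.05 in liver (SE 0.08) and by -0.23 in the reference (limma, adjusted p = 7.54e-06).

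Of 28 genes of NRF2 and oxidative defence, 0 were called in the log ratio or liver channel, and the liver median was -0.06 (9 above 0, 19 below). Among 18 metallothionein and selenoprotein genes, 1 was called in the log ratio. It was Selenow, a small selenoprotein with a redox motif. Liver values of Selenow were 7.92, 8.12, 7.61 and 7.83 in CC and 7.52, 7.48, 7.46 and 7.48 in MM, without overlap. The log ratio difference was -0.51 (SE 0.10; 1.42-fold; limma, adjusted p = 0.0098), with -0.38 in liver (adjusted p = 0.106) and 0.13 in the reference. That call held without each array in turn (-0.61 to -0.41). Mt1, the metal-binding metallothionein, ran from 14.17 to 16.04 in CC livers and from 14.85 to 15.89 in MM livers, with a difference of 0.10 (SE 0.42). Of 19 glutathione S-transferase genes 0 were called in the log ratio or liver channel, with a liver median of -0.11.

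Hormone-related genes gave no call in the liver channel. Of 16 genes of thyroid hormone handling and 30 of the growth hormone axis and sex-biased expression, 0 were called in the log ratio. Dio1, which activates thyroxine, differed by -0.07 in liver (SE 0.09). Thrsp, a thyroid-responsive lipogenic gene, differed by 0.06 (SE 0.28). The male-specific Cyp2c11 and the female-specific Cyp2c12 differed by 0.07 (SE 0.19) and 0.08 (SE 0.35). The 25 glucocorticoid and gluconeogenesis genes had 0 calls, with Pck1 at 0.15 (SE 0.20) and Fkbp5 at 0.15 (SE 0.14) in liver. The glucocorticoid receptor gene Nr3c1 was above background on 3 CC arrays and 1 MM array and differed by -0.03 (SE 0.10).

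Among lipid and bile acid genes 3 were called in the log ratio and 0 in the liver channel. Of 29 cholesterol biosynthesis genes 23 lay above 0 in the liver channel, with a median of 0.09, but the median was 0.01 in row 1 and 0.26 in row 2, and 0 were called. Fdft1, the squalene synthase gene, had the lowest liver p of these (0.41, SE 0.13; limma, adjusted p = 0.20). Of 35 PPARalpha and fatty acid oxidation genes 27 lay below 0, with a liver median of -0.10. Their single log ratio call was Hadha, a subunit of the mitochondrial trifunctional protein, at -0.89 (limma, adjusted p = 0.0039), with 0.06 in liver and 0.87 in the reference. A second Hadha probe, above background on all 8 arrays, read 0.27 in the log ratio and -0.37 in the reference. Acss2, an acetyl-CoA synthetase, was the single call of 23 fatty acid and triglyceride synthesis genes (0.46 in the log ratio, 0.14 in liver, -0.36 in the reference), and was lost without CC replicate 1, CC replicate 4 or MM replicate 4 (0.40 to 0.54, adjusted p up to 0.067). Slc10a1, the main hepatic uptake transporter of bile salts, was the 1 call of 24 bile acid genes. It differed by -0.33 in the log ratio (adjusted p = 0.048), by -0.03 in liver and by 0.02 in the reference, and kept its call only without CC replicate 3.

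Of 21 apolipoprotein and lipid transport genes, Apoc1 and Apoc2, which modulate lipase activity on lipoproteins, were called. Apoc1 log ratios were 9.19, 9.02, 8.98 and 8.89 in CC and 8.83, 8.65, 8.56 and 8.37 in MM, with no overlap. The difference was -0.42 (SE 0.09; 1.34-fold; limma, adjusted p = 0.014), with -0.18 in liver (adjusted p = 0.342) and 0.14 in the reference (adjusted p = 0.105). That call was lost without CC replicate 1, CC replicate 3 or MM replicate 2 (-0.46 to -0.37, adjusted p up to 0.053). Apoc2 read 6.76, 6.54, 6.74 and 6.41 in CC and 6.07, 6.16, 5.69 and 5.57 in MM. Its difference was -0.74 (SE 0.11; adjusted p = 0.0020), with -0.32 in liver and 0.42 in the reference, where the groups overlapped. Apoc4, their genomic neighbour, was at -0.33 in the log ratio (adjusted p = 0.074) and -0.25 in liver, and its second probe read -0.31 and -0.27. The summed liver signal of the 21 genes was 19.74 to 19.86 in CC and 19.65 to 19.71 in MM, without overlap. Of the 38 lists this was the only 1 without overlap, where 4.24% of single features had none in the liver channel. The summed difference was not tested.

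Of 35 acute phase and complement genes 3 were called in the log ratio, all lower. C9, the pore-forming complement protein, read 7.93, 8.0, 7.92 and 7.74 in CC and 7.69, 7.72, 6.95 and 7.23 in MM. The groups did not overlap, and the difference was -0.49 (SE 0.10; limma, adjusted p = 0.010), with -0.25 in row 1, -0.74 in row 2 and -0.23 in the liver channel. Crp (C-reactive protein) and Itih4 (an inter-alpha-trypsin inhibitor heavy chain) differed by -0.52 and -0.49 in the log ratio and by -0.14 and -0.26 in liver. The Crp call held only without CC replicate 2, and that of Itih4 was lost without CC replicates 1, 3 or 4 or MM replicate 3. F12, coagulation factor XII, was the 1 call of 16 coagulation genes (-0.44 in the log ratio, -0.12 in liver, 0.24 in the reference), lost without CC replicates 1 or 3 or MM replicate 3. Coagulation factor F9 lay in the opposite direction in liver, at 0.47 (SE 0.14; limma, adjusted p = 0.185).

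Features were also grouped by how far liver exceeded the reference. For the 352 features with a mean log ratio above 4, the median difference was -0.22 in the log ratio, 0.05 in the reference channel and -0.01 in liver, and 22 were called lower and 0 higher in the log ratio. For the 5121 features between 0 and 2 the log ratio median was -0.03, and 54 were called higher and 127 lower. Hepatocyte markers, 15 of 15 tested, had a log ratio median of -0.22 and a liver median of -0.05, with 0 called in either. The acute phase, coagulation and apolipoprotein lists had log ratio medians of -0.21, -0.21 and -0.24 and liver medians of -0.05, -0.02 and -0.10. The CAR and PXR list and the conjugating enzyme list had log ratio medians of -0.21 and -0.27 and liver medians of 0.03 and -0.03. The part of this liver excess in these medians, and in the calls of these lists, was not tested.

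Of 73 cytosolic ribosomal protein genes 3 were called lower in the log ratio, among them Rps28 and Rpl19 (-0.30 and -0.36; limma, adjusted p = 0.040 and 0.022). The second Rpl19 probe, above background on all 8 arrays, read 0.38. Rps28 kept its call only without MM replicate 4, and Rpl19 lost it without CC replicates 1 or 3 or MM replicates 2 or 3. Of 64 nuclear-encoded oxidative phosphorylation genes, Cox6a1 and Cox6c, subunits of cytochrome c oxidase, differed by -0.29 and -0.30, lost without CC replicate 1 for Cox6a1 and without any array but CC replicate 2 for Cox6c. Hsp90ab1, a cytosolic chaperone, was the 1 call of 21 heat shock genes, at -1.15 in the log ratio, 0.40 in liver and 1.45 in the reference. A second Hsp90ab1 probe, above background on all 8 arrays, read -0.22, 0.30 and 0.44. Canx, the membrane-bound relative of calreticulin, was called with Calr among 25 endoplasmic reticulum chaperone genes, at -0.45 in the log ratio, 0.17 in liver and 0.83 in the reference, and kept its call only without CC replicates 2 or 3 or MM replicate 3. E2f1, a driver of the G1 to S transition, was called among 18 cell cycle genes at 0.36 (adjusted p = 0.040), with 0.22 in liver, and kept the call only without MM replicate 4. Akt1, a kinase of insulin signalling, and Pfkl, the liver phosphofructokinase, were called among 24 insulin and glucose genes at 0.42 and -0.40. Their liver differences were -0.04 and -0.03, and their reference differences -0.61 and 0.39. Akt1 was above background in liver on 3 CC and 2 MM arrays. A second Pfkl probe, above background on all 8 arrays, read -0.13 in the log ratio and 0.15 in liver. Pfkl lost its call without CC replicates 1, 3 or 4 or MM replicates 2 or 4. Of 15 conjugating enzyme genes Sult1c3 and Ugt2b37 were lower, by 0.67 and 0.40 in the log ratio and by 0.03 and 0.18 in liver. Their reference differences were 0.45 and 0.01. Sult1c3 lost its call without CC replicates 1, 3 or 4, and Ugt2b37 without any CC array or MM replicates 2 or 3. The lists of interferon response (36 tested), circadian clock (13), aldo-keto reductases (14), urea cycle and amino acids (30), hepatocyte transcription factors (20), one-carbon metabolism (19) and immediate early genes (15) had 0 calls in the log ratio. In the urea cycle list, Cps1, which catalyses its entry step, read 7.77, 7.74, 7.78 and 7.82 in CC livers and 8.23, 8.04, 8.07 and 7.92 in MM livers, without overlap (0.29, SE 0.07; limma, adjusted p = 0.085).

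**Figure D3:**
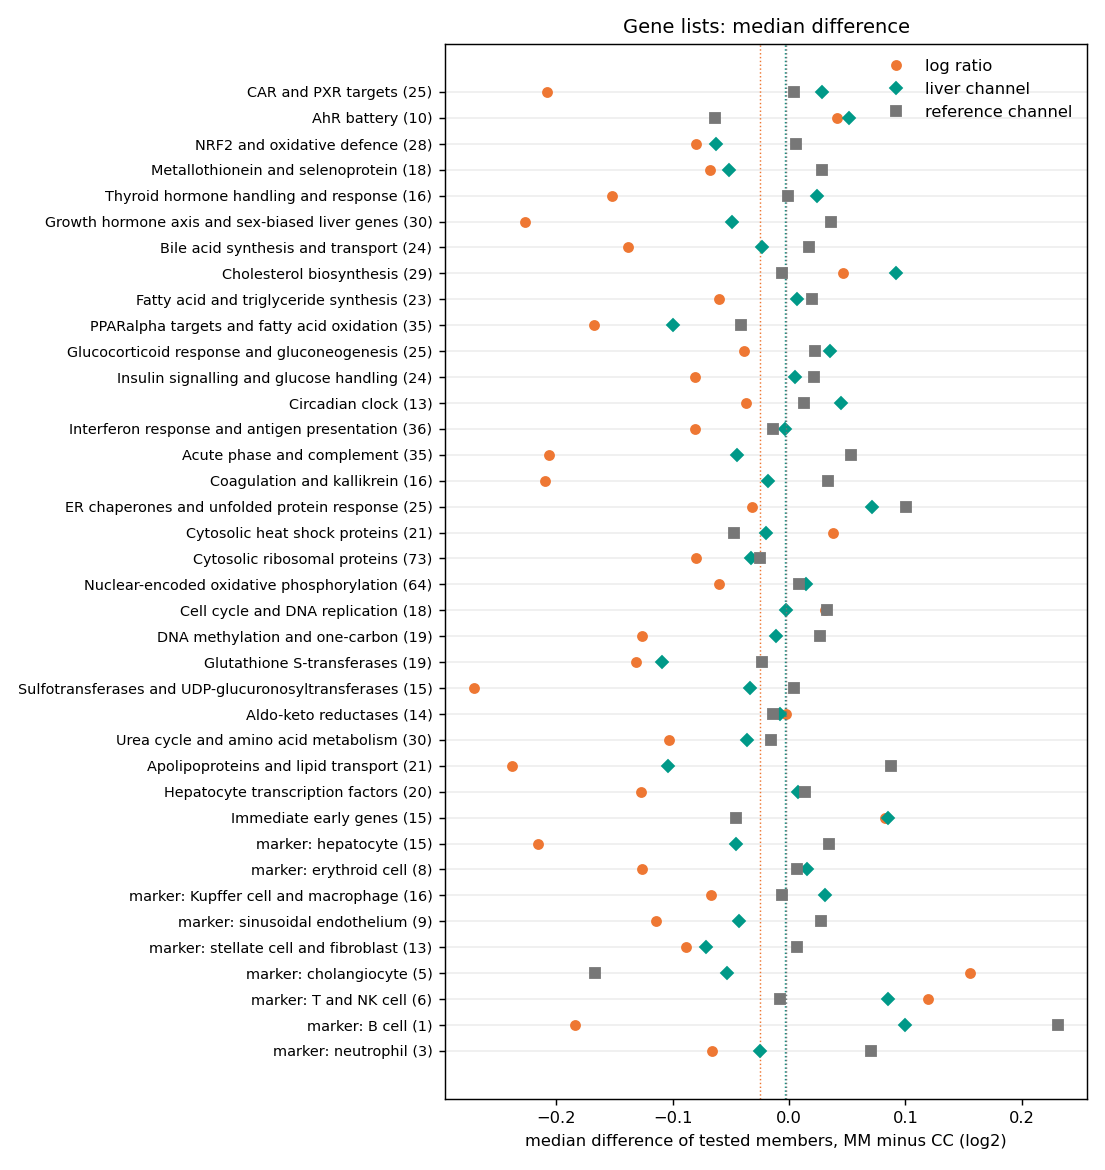
Median difference between MM and CC (log2) over the tested members of each gene list, in the log ratio, the liver channel and the reference channel; the number tested is in brackets and dotted lines mark the medians of all 11091 features. List medians in the liver channel lie between -0.11 and 0.10, while in the log ratio that of the 15 sulfotransferase and UDP-glucuronosyltransferase genes is -0.27.

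Markers of other cell types gave no call in the liver channel. The summed liver-channel signal of 8 tested erythroid markers was 15.81 to 16.73 in CC and 15.83 to 17.26 in MM. That of 16 Kupffer cell and macrophage markers was 13.44 to 13.99 in CC and 13.36 to 14.12 in MM, with a median difference of -0.30 in row 1 and 0.33 in row 2. For 13 stellate cell and fibroblast markers the ranges were 12.41 to 12.69 and 12.34 to 12.56, and for 9 sinusoidal endothelial markers 11.81 to 11.92 and 11.64 to 11.98. All of these ranges overlapped, as did those of 15 hepatocyte markers (19.95 to 20.06 and 19.93 to 20.03) and those of the cholangiocyte (5), T and NK cell (6), B cell (1) and neutrophil (3) markers tested. In whole liver, fewer cells of a type and less RNA per cell cannot be told apart. The stellate genes Lrat, a retinol acyltransferase, and Timp1, a metalloproteinase inhibitor, differed in opposite directions in liver (0.40, SE 0.11, and -0.24, SE 0.08; limma, adjusted p = 0.141 and 0.234), each without overlap. Slc4a1, the red cell anion exchanger, was called in the log ratio at -0.46 (limma, adjusted p = 0.032), where its reference signal was above background on 0 CC and 2 MM arrays. It was lost without CC replicates 2, 3 or 4 or MM replicates 1 or 3 (-0.53 to -0.38).

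Slide row and slide column both crossed exposure, with 2 CC and 2 MM arrays in each row and 1 of each in each column. Within a row, CC and MM arrays lay in different columns, so values given by row also carry the column. All 420 log ratio calls and all 36 liver-channel calls had the same sign in both rows, as had 5271 of the 5275 reference-channel calls. The row was a term of the fit that made these calls on the same arrays, so the agreement is no separate test. With slide column as a further block, 474 features were called in the log ratio (367 of them among the 420), 30 in the liver channel (23 among the 36) and 5408 in the reference channel. Of the genes described, Vom2r35, Gpat4, Tmem268, Slc10a1, Rps28, Cox6c and Flad1 then lost their log ratio call (limma, adjusted p = 0.050 to 0.072), and Abhd15, Or5p50 and Txnl1 their liver call (0.057 to 0.068). Without the row term 100 features were called in the log ratio and 3 in the liver channel. Among the named genes, Calr read -2.54 in row 1 and -2.52 in row 2, Pfn1 -0.78 and -0.89, and Ednra -0.92 and -0.65 in the log ratio. Acin1 differed more, with -2.52 and -1.58 in the log ratio and liver values of opposite sign, -0.63 and 0.28.

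**Figure D4:**
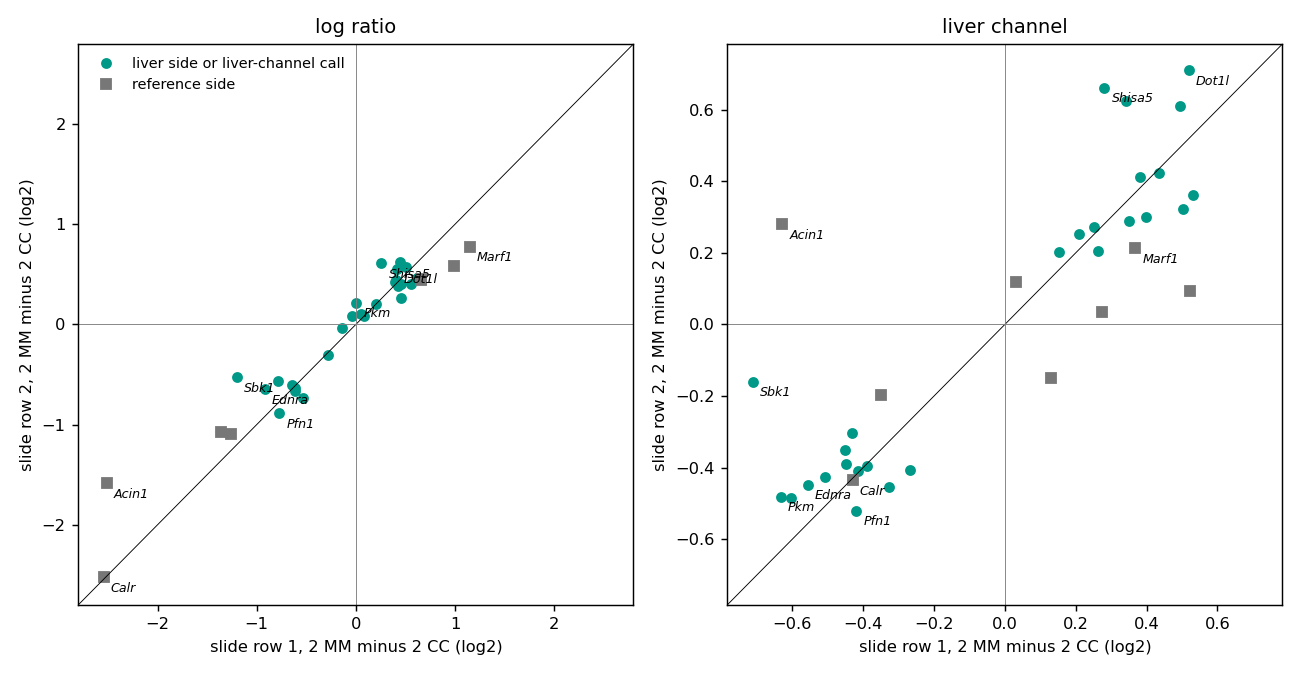
MM minus CC (log2) within slide row 1 (x axis) and within slide row 2 (y axis), 2 arrays against 2 in each, for genes named for their log ratio or liver-channel call; the left panel is the log ratio, the right panel the liver channel and the diagonal marks equality. The genes were chosen on these same arrays, so agreement in sign between the rows is no separate test. Acin1, on the reference side, reads -0.63 and 0.28 in the liver channel.

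The same exposure without fostering (M against C) lay between the same slides and shared no array with this comparison. C dams received corn oil and M dams the same dose of mixture, and their pups stayed with their own mothers; 1 label field calls the M arrays a control, against their title and treatment. In M minus C, 1167 features were called in the log ratio (10.5%), 5650 in the reference channel (50.9%) and 63 in the liver channel (0.568%). Both contrasts called 303 features in the log ratio, 72.1% of the MM minus CC calls and 25.96% of the M minus C calls. In the liver channel they shared 13 (36.1% and 20.6%), and in the reference channel 4527 (85.8% and 80.1%). The interaction, (MM minus CC) minus (M minus C), was called by limma for 0 features in the log ratio, liver or reference channel, with smallest adjusted p of 0.186, 0.943 and 0.240, and with 440, 417 and 305 features at an unadjusted p under 0.05.

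Side by side, Shisa5 differed by 0.47 in the fostered and 0.43 in the unfostered comparison in the liver channel, Dot1l by 0.61 and 0.51, and Pfn1 by -0.47 and -0.52. Calr in the reference channel differed by 1.98 and 1.97. Ednra was the feature with the smallest interaction p in the log ratio, at -0.78 with fostering and 0.27 without (interaction -1.05, SE 0.17; limma, adjusted p = 0.186). In the liver channel Ednra differed by -0.50 and 0.11, Agxt2 by -0.54 and -0.08, Selenow by -0.38 and -0.05 and Apoc1 by -0.18 and 0.08. None of these interactions was called. Akr1c2, an aldo-keto reductase, differed by 0.45 with fostering (SE 0.51) and -1.98 without, and the haemoglobin gene Hbb-b1 by 0.01 (SE 0.27) and -1.02 in liver. Their interactions, 2.44 (SE 0.72) and 1.02 (SE 0.38), had an adjusted p of 0.943.

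**Figure D5:**
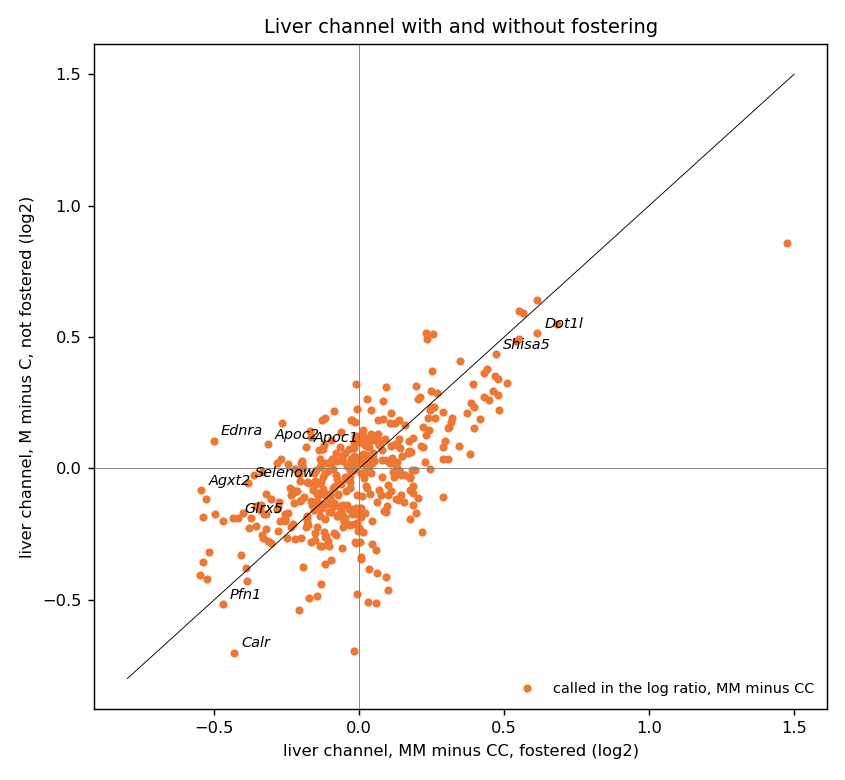
Liver-channel difference (log2) with fostering (MM minus CC, x axis) and without (M minus C, y axis) for the 420 features called in the log ratio of MM minus CC; the diagonal marks equality. Shisa5, Dot1l and Pfn1 lie near the diagonal, while Ednra reads -0.50 with fostering and 0.11 without.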

How the data were processed

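Per the labels' protocols, liver cRNA (Cy5) and universal reference cRNA (Cy3) were hybridised together. Median spot and background intensity of each channel and a log10 ratio came from the deposited scanner output (Agilent Feature Extraction 11.0.1.1, per the file headers). The authors' deposited value table was read as log2 ratios, with its centring not stated.

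Background correction by normexp (offset 50) preceded loess within arrays (log ratio) or quantile normalization of each channel, in limma 3.58.1 under R 4.3.3. Control spots had weight 0 and outlier spots were left out. The brightest probe per name was tested if its liver signal exceeded background on at least 3 of 4 arrays of a group: 11091 features, 7378 with a RefSeq (GRCr8) symbol. All 16 arrays were fitted with 4 group means and slide row (11 residual degrees of freedom), and p-values were adjusted by Benjamini-Hochberg over all features. Same-numbered MM and CC arrays share a slide row, and their log ratio deviations correlated at 0.553, 0.157, 0.582 and 0.192, or at 0.038 (row 1) and 0.254 (row 2) once the row was taken out. CC replicate 2 correlated best with MM replicate 1. The number was also used as a block.

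Named genes were the 8 (liver side) or 4 (reference side) largest non-overlapping log ratio calls per direction, up to 10 liver-channel calls per direction, up to 3 members per list by liver p, and preset genes. List members called in the log ratio, and calls with a liver difference but no reference call, were added after their values were seen. Some named genes are not reported here. Members, lists and tests were chosen with earlier results of these data known. The fits were tested on simulated data. The number of arrays limits precision. Alternatives were other normalizations, filters, probes, blocks and arrays left out; the slide column block was added after seeing the data.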

Additional observations from a re-analysis of the deposited data

Results flagged for a closer look

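In 372 groups of 4 log ratios (CC or MM, over the named genes) 16 held an array far from its other 3 by Dixon's test, where chance flags about 1 group in 20. On CC replicate 3 the log ratio was 0.72 for Nfe2l2 (others 0.11 to 0.19), 3.97 for Gamt (4.27 to 4.32), 2.29 for Sdsl (2.72 to 2.80), 0.27 for Ahsp (-0.13 to -0.06) and 2.52 for Hadha (2.11 to 2.16). On CC replicate 2 it was 7.49 for Ugt2b15 (others 7.19 to 7.23), 2.11 for Cebpa (1.60 to 1.65) and 2.30 for Cyp2c12 (4.42 to 4.74). On MM replicate 3 it was 0.54 for Abcb4 (others 1.34 to 1.42), 1.85 for Dio1 (2.61 to 2.73), -0.89 for Hsp90ab1 (-1.10 to -1.07) and 0.37 for Igh-6l1 (0.68 to 0.73). It was also -0.18 for Akt1 (others -0.30 to -0.29), 0.80 for Canx (0.33 to 0.36) and 0.040 for Hnrnph3 (-0.12 to -0.11) on that array. On MM replicate 1 it was 0.33 for Camp (others 0.85 to 0.92). Of these genes Hadha, Hsp90ab1, Igh-6l1, Akt1, Canx and Hnrnph3 were called between MM and CC in the log ratio.

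Among 16 groups of array measures 2 held such an array. MM replicate 3 had a liver-channel spot variation of 40.0% (others 18.3% to 21.6%), and CC replicate 1 had a reference background of 23.0 units where the other 3 were at 24.0.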

How the results depend on the processing

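The log ratio count of 420 fell to 100 without the row term, to 166 with only the 8 MM and CC arrays, to 135 with the replicate block and to 160 without both first-column arrays (CC replicate 1 and MM replicate 3). Leaving out 1 array gave 217 to 341. The liver-channel count of 36 fell to 3, 0, 0 and 2 under the same settings (1138 and 1160 features at an unadjusted p under 0.05 in both fits with 0 calls), to 11 among features above background on all 8 arrays and to 2 with median scaling. Leaving out 1 array gave 2 to 36. The cause was not tested. The reference count of 5275 stayed within 1.5 times under every setting run, at 4712 to 5057 with 1 array left out. In the log ratio, Or5h25d and Prima1 reversed with median centring, to -0.090 and -0.046. Of the named-gene values under the alternatives, 6081 stayed the same, 658 lost and 18 gained a call, 65 moved and 2 reversed. For a gene called in either fit, the same means that direction and call were kept. For a gene called in neither, it means a value within the within-group SD of the main value, whatever its sign. Reversals were counted only for genes called in either fit. Under the replicate block 19 of 65 named log ratio calls and 0 of 14 named liver-channel calls remained. Depth is limited by signal over background: at most 40.9% of probes were well above background in liver on the 8 arrays.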
